A study of Mus musculus with 18 samples.

Results

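The genes described here encode the translocases that carry nuclear-encoded proteins into mitochondria, the TOM complex of the outer membrane and the TIM complexes of the inner membrane, with the motor that pulls proteins into the matrix. They were taken as the protein-coding rows of the count table whose symbol begins with Timm or Tomm followed by a digit, together with Pam16, Dnajc19, Grpel1 and Hspa9, which gave 29 of 55573 rows. A further matching row, the non-coding Tomm6os, was left out because it is not protein coding. The RNA came from peritoneal macrophages of C57BL/6 mice, sorted as F4/80+ CD11b+ cells, in 6 groups of 3 libraries, and each library pooled 2 to 3 mice. All mice carried the floxed Zeb1f/f alleles. The controls carried these alleles alone (Zeb1WT), and the other genotype also carried LysM Cre (Zeb1∆M), a Cre recombinase expressed from the lysozyme 2 locus in myeloid cells, which is not restricted to macrophages. Each genotype was studied after 1 dose of lipopolysaccharide (LPS, a bacterial cell wall component that activates macrophages), after 2 doses (LPS + LPS, the immunosuppression protocol), and after pretreatment with the antidiabetic drug Metformin followed by 1 dose of LPS (Metformin + LPS). An untreated group was not analysed here, so every value describes cells that had received LPS, and the age of the mice is not given in the labels.

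Most mitochondrial proteins are made in the cytosol and enter through the TOM pore, where receptors recognise their targeting signals. Precursors with a cleavable presequence pass on through the TIM23 channel and are drawn into the matrix by a motor built around the mitochondrial Hsp70, whereas carrier proteins of the inner membrane are escorted across the intermembrane space by small TIM chaperones and inserted by the TIM22 complex. In macrophages the mitochondrion supplies energy and also metabolites and oxidants that shape the response to LPS, and its proteome depends on this import route.

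Libraries held between 14053706 and 30570439 counts. The scaling factors by the trimmed mean of M-values (TMM) ran from 0.445 to 1.56, and the 50 most abundant genes took between 22.6% and 48.4% of counts, with the highest shares in Zeb1WT Metformin + LPS. Zeb1 itself was lower in Zeb1∆M than in Zeb1WT after LPS (2.23 ± 0.818 against 6.77 ± 0.407 CPM, read counts scaled to a common library size, mean ± SD, n = 3 each) and after Metformin + LPS (4.31 ± 0.446 against 12.6 ± 0.323), with edgeR adjusted p values of 0.0305 and 0.0123, so some Zeb1 RNA remained. After LPS + LPS it was low in both genotypes, 0.807 ± 0.103 CPM in Zeb1∆M and 1.5 ± 0.888 CPM in Zeb1WT, and the difference did not pass (edgeR adjusted p = 0.352). The 5 macrophage markers examined (Adgre1, Itgam, Csf1r, Cd68 and Lyz2) were detected in every group. Their summed level lay between 43698 and 56949 CPM in Zeb1WT LPS and between 26556 and 41978 CPM in Zeb1∆M LPS, without overlap. In the LPS + LPS groups it lay between 12175 and 24174 CPM, below every LPS library. In Metformin + LPS it lay between 42956 and 102672 CPM in Zeb1WT and between 17880 and 24893 CPM in Zeb1∆M, again without overlap. Lyz2, 1 of the 5, is the gene of the locus that carries Cre in Zeb1∆M. Its part in the differences of this sum between genotypes was not tested. The levels of markers of other cells and of macrophage subsets also differed between groups. The summed level of 9 markers of large peritoneal macrophages lay between 11770 and 18026 CPM in the LPS and Metformin + LPS groups and between 819 and 3312 CPM in the LPS + LPS groups. The 14 neutrophil markers summed to between 1029 and 4260 CPM in Zeb1WT LPS + LPS against 787 to 1131 CPM in Zeb1WT LPS, and to between 877 and 1632 CPM in Zeb1∆M LPS + LPS against 602 to 744 CPM in Zeb1∆M LPS. Between genotypes, 5 of 14 neutrophil markers were lower in Zeb1∆M after LPS and 8 of 14 after Metformin + LPS (edgeR adjusted p under 0.05). Of all genes tested, 0.937% and 4.61% were lower in these comparisons. The 6 eosinophil markers summed to between 43.0 and 66.1 CPM in Zeb1WT Metformin + LPS and between 2.94 and 4.25 CPM in Zeb1∆M. The 10 B cell markers summed to between 449 and 698 CPM in Zeb1WT LPS and between 112 and 169 CPM in Zeb1∆M LPS. In the Metformin + LPS groups they summed to between 107 and 186 CPM in Zeb1WT and between 27.8 and 38.5 CPM in Zeb1∆M. The part of these cells in the comparisons was not tested. Markers of T and NK cells summed to at most 2.02 CPM in any library. In bulk RNA, fewer cells of a type and less RNA per cell cannot be told apart. The 12 LPS and LPS + LPS libraries carry column codes of one kind and the 6 Metformin + LPS libraries codes of another, so a difference between Metformin + LPS and LPS cannot be told apart from whatever these codes stand for, while each comparison of genotypes lies within one kind of code.

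Of the 29 import genes, 27 had enough counts to be tested among 13443 genes. Tomm20l, a relative of the TOM receptor gene Tomm20, had 0 counts in all 18 libraries, and Timm8a2, a relative of the small TIM gene Timm8a1, had between 0 and 2 counts per library. The summed level of the 29 genes was 1102 ± 38.5 CPM in Zeb1WT LPS and 1235 ± 153 CPM in Zeb1∆M LPS (n = 3 each). It was 1064 ± 94.7 CPM in Zeb1WT LPS + LPS and 1034 ± 22.5 CPM in Zeb1∆M LPS + LPS. The sums in Metformin + LPS were the lowest, at 848 ± 31.3 CPM in Zeb1WT and 909 ± 63.4 CPM in Zeb1∆M, and the highest Metformin + LPS library, at 981 CPM, lay above the lowest LPS + LPS library, at 967 CPM.

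Levels were compared between genes per kilobase of exon, as CPM per kilobase. The length joined all annotated exons of a gene, which need not be the length of the transcript expressed, so the order depends on it. The most abundant by the median over 18 libraries was Timm23 (ENSMUSG00000013701.13, chr14:32180162-32201898, minus strand, GRCm38), the pore of the presequence translocase, at 82.1 CPM per kilobase, followed by Hspa9, the mitochondrial Hsp70 of the import motor, at 43.0. Tomm22 (ENSMUSG00000022427.4, chr15:79670861-79673400, plus strand), the central receptor and organiser of TOM, followed at 27.5, and Grpel1 (ENSMUSG00000029198.3, chr5:36464998-36474080, plus strand), the nucleotide exchange factor of the motor, at 18.7. The pore gene Tomm40 stood at 11.3 and the receptor genes Tomm20 and Tomm70a at 14.7 and 6.01 CPM per kilobase. The lowest 3 among the tested genes were Tomm40l, a paralogue of the TOM pore, at 1.90, Timm21, a TIM23 subunit that faces TOM, at 1.55, and Timm9, a small TIM, at 1.08. By this measure partners in one complex differed widely, as between Timm23 and Timm21. Timm9 and its partner Timm10 stood at 1.08 and 15.2 CPM per kilobase, with exon lengths of 4.28 and 0.815 kilobases. Before division by length they differed less, at 5.29 and 12.1 CPM in Zeb1WT LPS (means, n = 3). Across libraries, the ratio of the highest to the lowest level was largest for Timm8a1 (6.5), Tomm70a (6.01), Timm21 (4.72), Timm9 (4.41) and Tomm40 (4.22), and smallest for Tomm22 (1.78). These libraries differ in treatment and genotype as well as in sampling, so the ratios are not a measure of error.

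**Figure D1:**
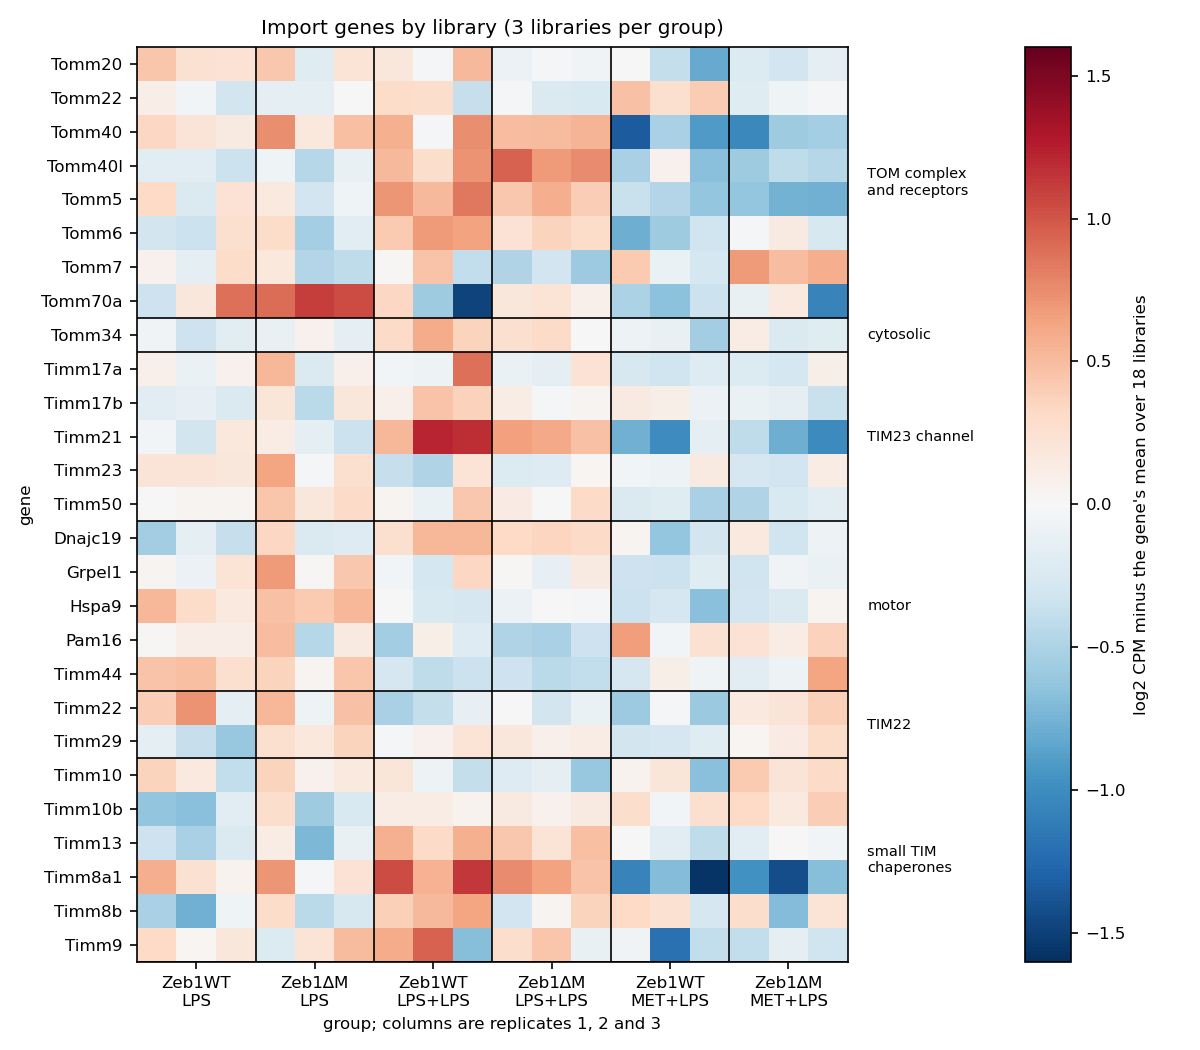
Levels of the 27 tested import genes (rows, grouped by role) in the 18 libraries (columns, 3 per group), drawn as log2 CPM minus the mean of that gene over all libraries (colour, red above and blue below). Timm8a1 and Tomm40 are blue in the 6 Metformin + LPS libraries, Tomm40l and Timm21 are red in the 6 LPS + LPS libraries, and Tomm70a differs widely among libraries of the same group.

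Promoter windows of 300 bases, from 250 before to 50 after the start that RefSeq gives on GRCm38.p6, were at hand for 25 of the 29 genes. The letters bound by ETS factors such as GABP, CCGGAAG, were in 10 of these 25 windows (40%) against 12.3% of 16571 protein-coding windows. The CACGTG E-box bound by MYC was in 5 (20%) against 8.12%, and the NRF1 letters, GCGCA then any base then GCGC, were in 3 (12%) against 6.9%. The CAGGTG E-box that ZEB1 can bind was in 4 windows (16%) against 19.3% of all, the YY1 letters AAGATGGC in 1 (4%) against 3.28%, and CCAAT in 9 (36%) against 38.8%. All letters were searched on both strands, and in Tomm22 2 ETS matches on opposite strands overlap. A match describes the letters of the window and is not a bound site, and these shares were not tested. Stretches of 30 bases around 6 matches are printed 5′ to 3′ on the strand of the gene, with the matched letters in capitals. The ETS letters, in either orientation, are shown for the abundant Timm23 and Tomm22, for Timm8b and Tomm34, which were higher after LPS + LPS in Zeb1WT, the NRF1 letters for the receptor gene Tomm20, and the E-box for Timm8a1, which fell in Metformin + LPS.
Timm23, chr14:32201920-32201949, minus strand: cgcgcttcccaCTTCCGGgccgcacacagc
Tomm22, chr15:79670813-79670842, plus strand: ccggctcgcttCCGGAAGacgctctgtcca
Timm8b, chr9:50603871-50603900, plus strand: ggcaacctgaagcgtgaaCCGGAAGgcagg
Tomm34, chr2:164071190-164071219, minus strand: ttgagcccactCTTCCGGccgcttagctcc
Tomm20, chr8:126945922-126945951, minus strand: gggtccatctGCGCGTGCGCaccaggcgtt
Timm8a1, chrX:134541889-134541918, minus strand: ccttcagtggacCACGTGggatgaagcaac

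The first question was whether loss of Zeb1 in myeloid cells altered these genes under each treatment. None of the 27 tested import genes passed an adjusted p of 0.05 in Zeb1∆M against Zeb1WT macrophages after LPS, after LPS + LPS or after Metformin + LPS (edgeR quasi-likelihood test, Benjamini-Hochberg adjustment over all 13443 genes). Among all genes tested, 1.15%, 0.677% and 5.87% passed in these comparisons. At an unadjusted p under 0.05 there were 1, 0 and 5 import genes. The share of all genes at that unadjusted threshold is not given, here or below, so such counts have no background and are not read as results. The DESeq2 Wald test called 1 gene after LPS, Timm29 (3.68% of all genes by that test), and 0 after LPS + LPS and after Metformin + LPS (3.03% and 10.1% of all genes). The median log2 fold change, Zeb1∆M over Zeb1WT, was 0.12 after LPS, -0.21 after LPS + LPS and 0.13 after Metformin + LPS, against 0.01, -0.02 and 0.03 over all genes tested. These medians moved when single libraries were left out, and only that after LPS changed sign. After LPS the median was -0.0058 without the first Zeb1∆M library, 0.18 without the second, and 0.18 and 0.075 without the first and second Zeb1WT libraries. After LPS + LPS it was -0.12, -0.13 and -0.069 without the first, second and the third Zeb1WT library and -0.10 without the third Zeb1∆M library. After Metformin + LPS it was 0.083 without the third Zeb1∆M library.

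The precision of these comparisons limits what size of difference they leave possible. The 95% interval of the log2 fold change lay within ±1 for 26 of 27 genes after LPS, 24 after LPS + LPS and 24 after Metformin + LPS, whereas this held for 43.9%, 45.4% and 39.1% of all genes tested. The gene whose interval reached 1 after LPS was Tomm70a, the receptor for carrier precursors (ENSMUSG00000022752.9, chr16:57121703-57156705, plus strand). Its levels in Zeb1WT LPS were 43.3, 61.6 and 99.8 CPM and in Zeb1∆M LPS 101, 117 and 112 CPM. The Zeb1WT libraries differed among themselves by more than the distance from the highest of them to the lowest Zeb1∆M library, and the log2 difference of 0.69 ± 0.36 (SE) had an interval from -0.07 to 1.45 (edgeR adjusted p = 0.413). After LPS + LPS the intervals of Timm8b, Tomm7 and Tomm70a reached 1 in size, and after Metformin + LPS those of Timm22, Tomm7 and Tomm70a.

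The largest difference by its test was that of Timm29 (ENSMUSG00000048429.10, chr9:21592722-21595970, plus strand), a subunit that stabilises the TIM22 complex. After LPS it stood at 27.3, 23.6 and 20.0 CPM in Zeb1WT and at 36.3, 34.1 and 38.9 CPM in Zeb1∆M. Every Zeb1∆M library was above every Zeb1WT library, and the log2 fold change was 0.62 ± 0.15 (SE), a ratio of 1.54, with an edgeR adjusted p of 0.0525. It passed with the DESeq2 test, with trends of length and GC removed (edgeR adjusted p = 0.0452) and without the first Zeb1WT LPS + LPS library (0.445% of all genes higher), which entered the shared estimate of the spread. It passed in 0 of the 6 fits that left out a library of the groups compared. Over the alternatives its edgeR adjusted p reached 0.258, so its call depended on the fit. After Metformin + LPS it was again higher in all 3 Zeb1∆M libraries, at 30.9, 33.1 and 37.1 CPM against 24.6, 25.1 and 26.6 CPM (0.41 ± 0.15, edgeR adjusted p = 0.130), but after LPS + LPS the groups overlapped, at 34.3, 32.2 and 33.0 CPM in Zeb1∆M and 29.8, 31.9 and 35.3 CPM in Zeb1WT (0.03 ± 0.15, edgeR adjusted p = 0.970).

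The 4 other import genes at an unadjusted p under 0.05 after Metformin + LPS were Timm22, the channel of the carrier translocase, and 3 TOM subunits. Timm22 (ENSMUSG00000020843.15, chr11:76406952-76416292, plus strand) stood at 10.9, 16 and 10.9 CPM in Zeb1WT and at 18.4, 18.9 and 21.3 CPM in Zeb1∆M, groups that did not overlap (0.63 ± 0.24, edgeR adjusted p = 0.132). The receptor gene Tomm22 differed the other way, at 64.4, 55.4 and 61.8 CPM in Zeb1WT and 40.8, 44.2 and 45.8 CPM in Zeb1∆M (-0.47 ± 0.17, edgeR adjusted p = 0.123), and this sign turned when libraries were scaled by their totals alone (0.12). Tomm6 and Tomm7, small subunits that help assemble and stabilise the TOM pore, had log2 differences of 0.51 and 0.55 with edgeR adjusted p values of 0.202 and 0.230. None of these 4 passed here in any comparison of genotypes, but after Metformin + LPS Tomm6 and Tomm7 passed as higher with trends of length and GC removed, and Timm22, Tomm6 and Tomm7 did with library totals alone, both alternatives chosen after seeing the data. Of the other role groups, the gene with the smallest p after LPS was Grpel1 in the motor (0.34 ± 0.18, edgeR adjusted p = 0.428), Timm50, the TIM23 receptor, in the TIM23 channel (0.28 ± 0.17, edgeR adjusted p = 0.489) and Timm10b, a small TIM that attaches to TIM22, among the chaperones (0.34 ± 0.21, edgeR adjusted p = 0.498).

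**Figure D2:**
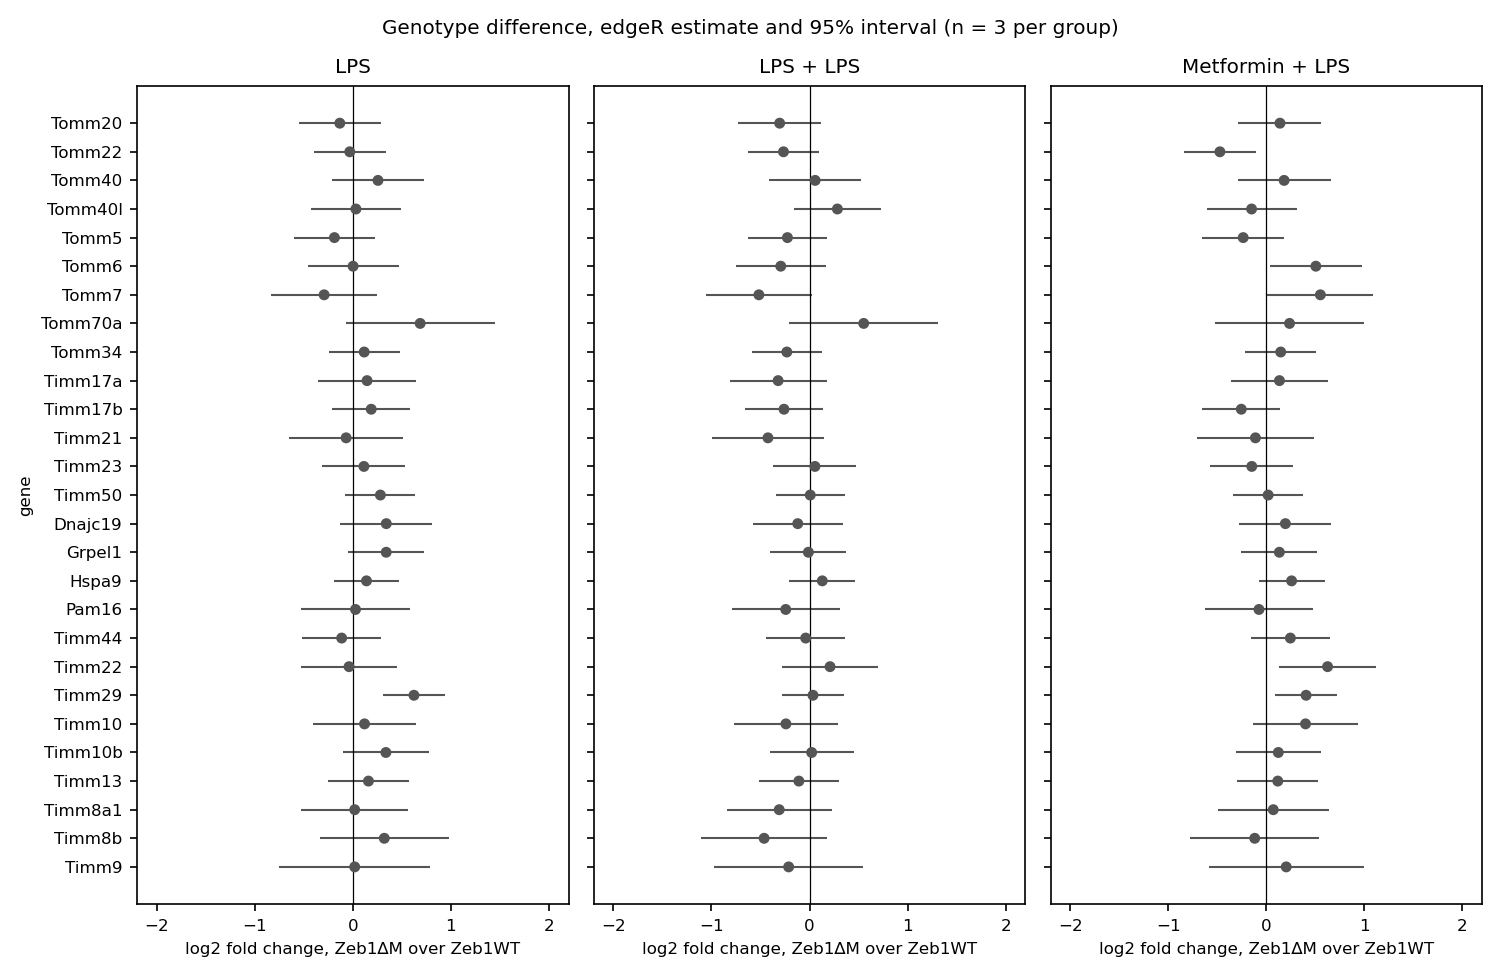
Difference between genotypes for the 27 tested import genes in each treatment, as the log2 fold change of Zeb1∆M over Zeb1WT (horizontal axis, positive where Zeb1∆M was higher) with a 95% interval derived from the edgeR test, n = 3 libraries per group. All points are grey because no gene passed the adjusted threshold, and the widest intervals after LPS belong to Tomm70a and Timm9.

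A second dose of LPS moved part of the list in Zeb1WT macrophages. Compared with 1 dose, 10 of 27 import genes were higher and 3 lower after LPS + LPS (edgeR adjusted p under 0.05), where 36.6% of all genes tested passed, 18.6% higher and 18% lower. The share of import genes called, 48.1%, was read against that background, and the median log2 fold change was 0.25 against 0.08 over all genes tested. With single libraries left out, the import gene median ran from 0.18 without the first LPS + LPS library to 0.41 without the second. Without the first, the median over all genes was 0.04. In Zeb1∆M macrophages, 3 genes were higher and 2 lower, a share of 18.5% where 32.7% of all genes passed, 15.8% higher and 16.9% lower, with a median of -0.07 against 0.01. That median was near 0 and its sign was not stable: it was 0.028 without the third LPS library, and -0.018, -0.14 and -0.029 without the first or second LPS or the third LPS + LPS library. The 2 comparisons have no library in common. All 5 genes called in Zeb1∆M were also called in Zeb1WT in the same direction, which was 100% of the Zeb1∆M calls and 38.5% of the 13 Zeb1WT calls. The matching shares over all genes were not computed, so this overlap is not read as particular to the import genes. The role groups did not move as blocks, since the motor and TIM22 groups held genes of both directions in Zeb1WT.

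Among the TOM genes, 3 of 8 tested rose in Zeb1WT (Tomm40l, Tomm5 and Tomm6) and 2 in Zeb1∆M (Tomm40l and Tomm5), and none fell. Tomm40l (ENSMUSG00000005674.9, chr1:171216011-171222514, minus strand) rose from 9.50, 9.53 and 8.49 CPM after LPS to 15.4, 13.1 and 17.8 CPM after LPS + LPS in Zeb1WT. In Zeb1∆M it rose from 10.3, 7.90 and 9.94 CPM to 20.8, 17.3 and 18.3 CPM. Neither pair of groups overlapped, and the log2 fold changes were 0.75 ± 0.22 (edgeR adjusted p = 0.0104) and 1.00 ± 0.22 (edgeR adjusted p = 0.00157). Exons of Tomm40l share 64.3% of their bases with Nr1i3 on the opposite strand, which had between 13 and 121 counts per library, where Tomm40l had between 79 and 620, and whether counting used strand is not stated in the sources used here. The principal pore gene Tomm40 stood at 56.2, 51.4 and 49.2 CPM after LPS and 66.0, 43.7 and 74.7 CPM after LPS + LPS in Zeb1WT, groups that overlapped (0.23 ± 0.22, edgeR adjusted p = 0.438).

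Tomm5 (ENSMUSG00000078713.8, chr4:45105208-45108114, minus strand), a small TOM subunit, rose from 15.3, 10.4 and 14.4 to 20.1, 17.6 and 22.1 CPM in Zeb1WT and from 13.7, 9.94 and 11.7 to 16.6, 18.4 and 16.2 CPM in Zeb1∆M, without overlap. The log2 fold changes were 0.58 ± 0.19 and 0.54 ± 0.20 (edgeR adjusted p = 0.0267 and 0.0421). Tomm6 rose from 15.6, 15.1 and 22.8 to 25.7, 30.6 and 29.9 CPM in Zeb1WT (0.69 ± 0.22, edgeR adjusted p = 0.0193), while in Zeb1∆M its log2 difference was 0.40 ± 0.22 (edgeR adjusted p = 0.184). Tomm6 shares 76% of its exon bases with the readthrough gene Gm21981 on the same strand, which had 0 or 1 count per library. Tomm34, a cytosolic partner of Hsp70 and Hsp90 that keeps precursors ready for import, rose in Zeb1WT from 32.6, 26.8 and 29.9 to 41.9, 51.1 and 43.2 CPM (0.61 ± 0.17, edgeR adjusted p = 0.00937) and was 0.26 ± 0.17 in Zeb1∆M (edgeR adjusted p = 0.263).

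Within the TIM23 channel, 1 of 5 genes passed. Timm21 stood at 5.96, 5.02 and 6.91 CPM after LPS and 8.86, 14.2 and 13.9 CPM after LPS + LPS in Zeb1WT, with every LPS + LPS library above every LPS library. The log2 fold change was 1.05 ± 0.28 (edgeR adjusted p = 0.00585). In Zeb1∆M the levels were 6.69, 5.56 and 4.84 CPM and 9.70, 9.34 and 8.52 CPM, which did not overlap either, and the log2 difference was 0.69 ± 0.28 (edgeR adjusted p = 0.0620). The pore gene Timm23 had log2 differences of -0.37 and -0.43 in the 2 genotypes, and the receptor gene Timm50 of 0.11 and -0.17, and none of these passed.

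The motor was the group with most genes lower. Hspa9 fell from 269, 229.7 and 208 to 187, 157 and 155 CPM in Zeb1WT and from 259, 249 and 270.3 to 176, 186 and 185 CPM in Zeb1∆M, with no overlap in either genotype (-0.50 ± 0.16 and -0.51 ± 0.16, edgeR adjusted p = 0.0195 and 0.0201). With libraries scaled by their totals alone, which moved the median of all genes by 0.65 and 0.59, the sign of Hspa9 turned (0.14 and 0.079), so its fall is relative to the other genes. Timm44 (ENSMUSG00000002949.15, chr8:4259731-4275913, minus strand), the scaffold that ties Hspa9 to the channel, fell from 51.2, 52.2 and 44.4 to 30.9, 28.2 and 29.3 CPM in Zeb1WT and from 47.7, 38.3 and 50.6 to 29.7, 27.8 and 28.5 CPM in Zeb1∆M (-0.74 ± 0.19 and -0.67 ± 0.19, edgeR adjusted p = 0.00557 and 0.0129). Again no LPS + LPS library reached the lowest LPS library of its genotype. With library totals alone the log2 difference of Timm44 shrank to -0.091 in Zeb1WT and -0.073 in Zeb1∆M and did not pass. The fall of Timm44 is thus also relative to the other genes. Dnajc19 (ENSMUSG00000027679.13, chr3:34056020-34081321, minus strand), the J-domain protein that stimulates Hspa9, went the other way in Zeb1WT, from 8.29, 11.0 and 9.52 to 14.6, 17.7 and 17.7 CPM (0.80 ± 0.22, edgeR adjusted p = 0.00862). Its Zeb1∆M groups overlapped (0.34 ± 0.22, edgeR adjusted p = 0.266). Exons of Dnajc19 share 4.42% of their bases with Fxr1 on the opposite strand. Fxr1 had between 532 and 1856 counts per library, where Dnajc19 had between 129 and 565. Pam16, the regulatory partner of the J-domain protein, and Grpel1 passed in neither genotype.

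In the carrier pathway, TIM22 held 1 gene that rose and 1 that fell in Zeb1WT. Timm29 rose (0.45 ± 0.15, edgeR adjusted p = 0.0258) and the channel gene Timm22 fell from 21.6, 27.0 and 14.9 to 11.5, 12.6 and 15 CPM (-0.70 ± 0.23, edgeR adjusted p = 0.0249), the groups of Timm22 overlapping. With library totals alone Timm22 did not pass (-0.039). The small TIM chaperones Timm13, Timm8b and Timm10b rose in Zeb1WT, and only Timm13 among the 6 tested passed in Zeb1∆M. Timm13 (ENSMUSG00000020219.7, chr10:80899450-80900969, minus strand), which works as a complex with Timm8 proteins, rose from 19.2, 16.8 and 20.5 to 35.8, 29.9 and 35.8 CPM in Zeb1WT and from 26.2, 14.7 and 22.3 to 32.5, 28.0 and 33.6 CPM in Zeb1∆M, without overlap (0.84 ± 0.20 and 0.58 ± 0.20, edgeR adjusted p = 0.00240 and 0.0304). Timm8b rose from 3.99, 3.35 and 5.45 to 7.44, 8.17 and 8.81 CPM in Zeb1WT (0.94 ± 0.31, edgeR adjusted p = 0.0248) and was 0.15 ± 0.31 in Zeb1∆M (edgeR adjusted p = 0.749). Exons of Timm8b share 15.6% of their bases with Nkapd1 on the opposite strand, which had between 83 and 361 counts per library where Timm8b had between 61 and 281, and those of Timm10b share 10.5% with Gm45799 on the same strand (4 to 58 counts against 225 to 598). Timm10b also shares 7.73% of its exon bases with Arfip2 on the opposite strand, which had 85 to 513 counts. Timm9 and Timm10, which form the other small TIM complex, passed in neither genotype, with log2 differences of 0.25 and -0.15 in Zeb1WT.

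Calls in Zeb1WT depended on single libraries. Without the first Zeb1WT LPS + LPS library there were 9 genes higher and 3 lower (16.2% and 17.3% of all genes), with Timm17b gained among the higher genes and Tomm70a among the lower, and Timm10b, Tomm5 and Timm22 lost. Leaving out any 1 library of the 2 groups gave 5 to 9 genes higher, with 5 without the second LPS library and 6 without the third LPS + LPS library. It gave 1 to 3 lower, with 1 without the first or second LPS or the second LPS + LPS library. In Zeb1∆M the same gave 1 to 4 genes higher, with 1 without the second LPS library or without the first or the third LPS + LPS library. It gave 0 to 4 lower, with 0 without the third LPS library, 4 without the second, and 1 without any of the LPS + LPS libraries. With trends of length and GC removed, an alternative chosen after seeing the data, 6 genes were higher and 4 lower in Zeb1WT and 3 higher and 7 lower in Zeb1∆M (36.5% and 32.8% of all genes called), so the larger number of calls in Zeb1WT was not seen there. Timm13, Timm29, Tomm34 and Tomm6 no longer passed in Zeb1WT (edgeR adjusted p = 0.0679, 0.157, 0.195 and 0.0963), nor did Timm13 in Zeb1∆M (edgeR adjusted p = 0.462). The calls gained were Timm23, lower in Zeb1WT, and in Zeb1∆M Timm21, higher, and Pam16, Timm10, Timm22, Timm23 and Timm50, lower. The large peritoneal macrophage markers fell in the same comparison, 7 of 9 passing in each genotype with medians of -3.50 and -2.27 on the log2 scale. Neutrophil markers rose, 8 of 14 in Zeb1WT and 9 of 14 in Zeb1∆M. Of all genes tested, 18% and 16.9% were lower in Zeb1WT and Zeb1∆M, and 18.6% and 15.8% higher. The part of either cell type in the import genes' changes was not tested.

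**Figure D3:**
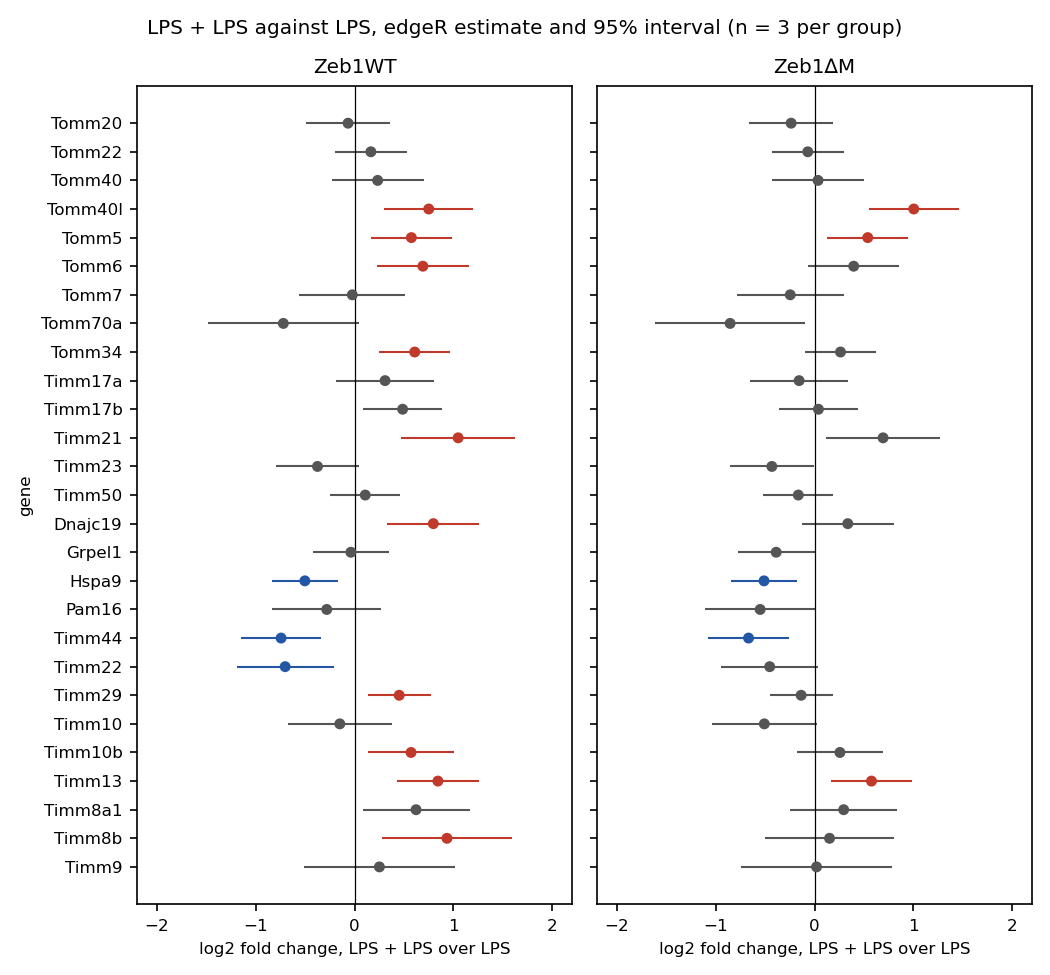
LPS + LPS against LPS for the 27 tested import genes in each genotype, as the log2 fold change (horizontal axis, positive where LPS + LPS was higher) with a 95% interval derived from the edgeR test, n = 3 libraries per group. Red marks genes called higher and blue genes called lower: 10 and 3 in Zeb1WT, 3 and 2 in Zeb1∆M.

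The genotypes were compared for their response to the second dose by an interaction term, the change in Zeb1∆M minus the change in Zeb1WT. No import gene passed, and no gene of the 13443 tested did (0%, edgeR). DESeq2 called 0 import genes and 72 of all genes (0.521%), and edgeR called 9 of all genes (0.0645%) without the first Zeb1WT LPS + LPS library. The larger number of calls in Zeb1WT is thus not shown to be a difference between genotypes. At an unadjusted p under 0.05 there was 1 import gene, Timm29, with an interaction of -0.59 ± 0.21 (edgeR adjusted p = 0.512). The direction was the same for most of the list: 24 of 27 genes were below 0, 88.9% against 54.4% of all genes tested, with a median of -0.27 against -0.05. Leaving out 1 of the 12 libraries gave 21 to 25 genes below 0, and the median was -0.10 without the first Zeb1∆M LPS library and between -0.20 and -0.34 without any of the others. These genes share 12 libraries and are not independent, and the pattern carries no test of its own.

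Metformin pretreatment addressed whether the drug altered these genes before a single dose of LPS. Compared with LPS alone, 1 import gene was higher and 6 lower in Zeb1WT Metformin + LPS macrophages, 25.9% of 27, where 25.2% of all genes tested passed (edgeR). In Zeb1∆M, 1 was higher and 7 lower, 29.6% where 26.2% of all genes passed. The shares called were near the background in both genotypes, but the lower direction held most of the calls: 12.3% and 13.6% of all genes were called lower, and 13% and 12.6% higher. The median log2 fold changes were -0.28 and -0.21, against -0.03 and -0.04 over all genes. In Zeb1∆M the median was -0.11, -0.39 and -0.12 without the first, second and the third LPS library, and -0.050 with trends of length and GC removed. Hspa9, Timm8a1, Tomm40 and Tomm5 were lower in both genotypes, 57.1% of the Zeb1WT calls and 50% of the Zeb1∆M calls. Here too the matching shares over all genes were not computed, and the overlap is not read as particular to these genes. Because library codes differ between these treatments, each value below compares the libraries as well as the treatments. Summed dendritic cell markers were between 471 and 825 CPM in Zeb1WT LPS and between 102 and 110 CPM in Zeb1WT Metformin + LPS. In Zeb1∆M the ranges overlapped, 284 to 1048 CPM after LPS and 111 to 600 CPM after Metformin + LPS. Both LPS + LPS groups were lower still, between 6.21 and 19.4 CPM. The part of these cells in the changes with Metformin or with LPS + LPS was not tested.

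Tomm40 (ENSMUSG00000002984.17, chr7:19701313-19715438, minus strand), the pore through which nearly all precursors pass, stood at 56.2, 51.4 and 49.2 CPM after LPS and at 17.7, 31.2 and 23.9 CPM after Metformin + LPS in Zeb1WT. In Zeb1∆M it stood at 74.6, 50.2 and 62.6 CPM and 21.9, 30.2 and 30.8 CPM. All 6 Metformin + LPS libraries lay below all 6 LPS libraries, at ratios of 0.466 and 0.443 (log2 -1.10 ± 0.23 and -1.18 ± 0.23, edgeR adjusted p = 0.00187 and 0.00126). Tomm5 fell from 15.3, 10.4 and 14.4 to 9.61, 8.88 and 7.97 CPM in Zeb1WT and from 13.7, 9.94 and 11.7 to 7.96, 7.27 and 7.22 CPM in Zeb1∆M (-0.60 ± 0.20 and -0.65 ± 0.20, edgeR adjusted p = 0.0333 and 0.0227). The presequence receptor gene Tomm20 (ENSMUSG00000093904.2, chr8:126930667-126945844, minus strand) fell in Zeb1WT, from 100.03, 87.2 and 86.7 to 73.8, 56.7 and 42.1 CPM (-0.67 ± 0.20, edgeR adjusted p = 0.0217), and in Zeb1∆M its groups overlapped (-0.39 ± 0.20, edgeR adjusted p = 0.158). Tomm70a, the other receptor, fell in Zeb1∆M from 101, 117 and 112 to 50.1, 60.3 and 25.9 CPM (-1.27 ± 0.37, edgeR adjusted p = 0.0166) and was -0.82 ± 0.37 in Zeb1WT (edgeR adjusted p = 0.107). Tomm7 was the only TOM gene higher, in Zeb1∆M, at 11.6, 7.44 and 7.80 CPM after LPS and 16.5, 14.5 and 15.4 CPM after Metformin + LPS (0.79 ± 0.26, edgeR adjusted p = 0.0301), and its change in Zeb1WT was -0.05 ± 0.26 (edgeR adjusted p = 0.916).

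The strongest fall among the chaperones was that of Timm8a1 (ENSMUSG00000048007.4, chrX:134537256-134541865, minus strand), the mouse counterpart of the human deafness-dystonia gene and a partner of Timm13. Its levels were 20.8, 16.6 and 14.5 CPM after LPS and 6.66, 8.60 and 4.72 CPM after Metformin + LPS in Zeb1WT. In Zeb1∆M they were 22.7, 13.8 and 16.3 CPM and 7.15, 5.22 and 8.73 CPM. The groups did not overlap in either genotype, and the ratios were 0.387 and 0.401 (log2 -1.37 ± 0.27 and -1.32 ± 0.27, edgeR adjusted p = 0.00126 and 0.00180). Its partner Timm13 did not pass, with log2 differences of 0.18 and 0.13. Timm10b rose in Zeb1WT from 11.7, 11.4 and 15.9 to 22.1, 17.5 and 21.7 CPM (0.65 ± 0.21, edgeR adjusted p = 0.0285), a direction that turned to -0.088 with library totals alone, a scaling that moved the median of all genes by -0.71 in that comparison.

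The motor gene Hspa9 fell in both genotypes, from 269, 229.7 and 208 to 147, 155 and 117 CPM in Zeb1WT and from 259, 249 and 270.3 to 151, 159 and 193 CPM in Zeb1∆M, without overlap (-0.75 ± 0.16 and -0.63 ± 0.16, edgeR adjusted p = 0.00245 and 0.00816). Grpel1 fell in Zeb1∆M, from 109, 69.0 and 92.3 to 54.8, 65.5 and 63.5 CPM (-0.56 ± 0.19, edgeR adjusted p = 0.0335), and was -0.35 ± 0.19 in Zeb1WT (edgeR adjusted p = 0.176). In the TIM23 channel only Timm50 (ENSMUSG00000003438.17, chr7:28305516-28312072, minus strand) passed, in Zeb1∆M, with 43.1, 35.8 and 39.1 CPM after LPS and 22.7, 26.7 and 28.2 CPM after Metformin + LPS (-0.60 ± 0.17, edgeR adjusted p = 0.0148). The carrier channel Timm22 fell in Zeb1WT, from 21.6, 27.0 and 14.9 to 10.9, 16 and 10.9 CPM with overlapping groups (-0.74 ± 0.24, edgeR adjusted p = 0.0283), and was -0.08 ± 0.23 in Zeb1∆M (edgeR adjusted p = 0.843). Across the 27 genes, the log2 fold change with Metformin and exon length had rank correlations of -0.40 in Zeb1WT and -0.45 in Zeb1∆M, given as a description. Over all genes with a length they were 0.05 and 0.09. With trends of length and GC removed, Timm22 in Zeb1WT and Grpel1 and Timm50 in Zeb1∆M no longer passed (edgeR adjusted p = 0.0934, 0.0819 and 0.458), while Tomm70a was gained as lower in Zeb1WT and Timm10b as higher in Zeb1∆M. Leaving out 1 library gave 3 to 5 genes lower in Zeb1WT, with 3 without the first LPS or the third Metformin + LPS library, and 3 to 7 in Zeb1∆M, with 3 without the first Metformin + LPS library and 4 without the first LPS or the third Metformin + LPS library. The call of Timm10b in Zeb1WT was lost without the first or second LPS or the first or the third Metformin + LPS library. In Zeb1∆M the count of genes higher was 0 without the second or the third LPS or the first or second Metformin + LPS library, and 2 without the first LPS library.

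**Figure D4:**
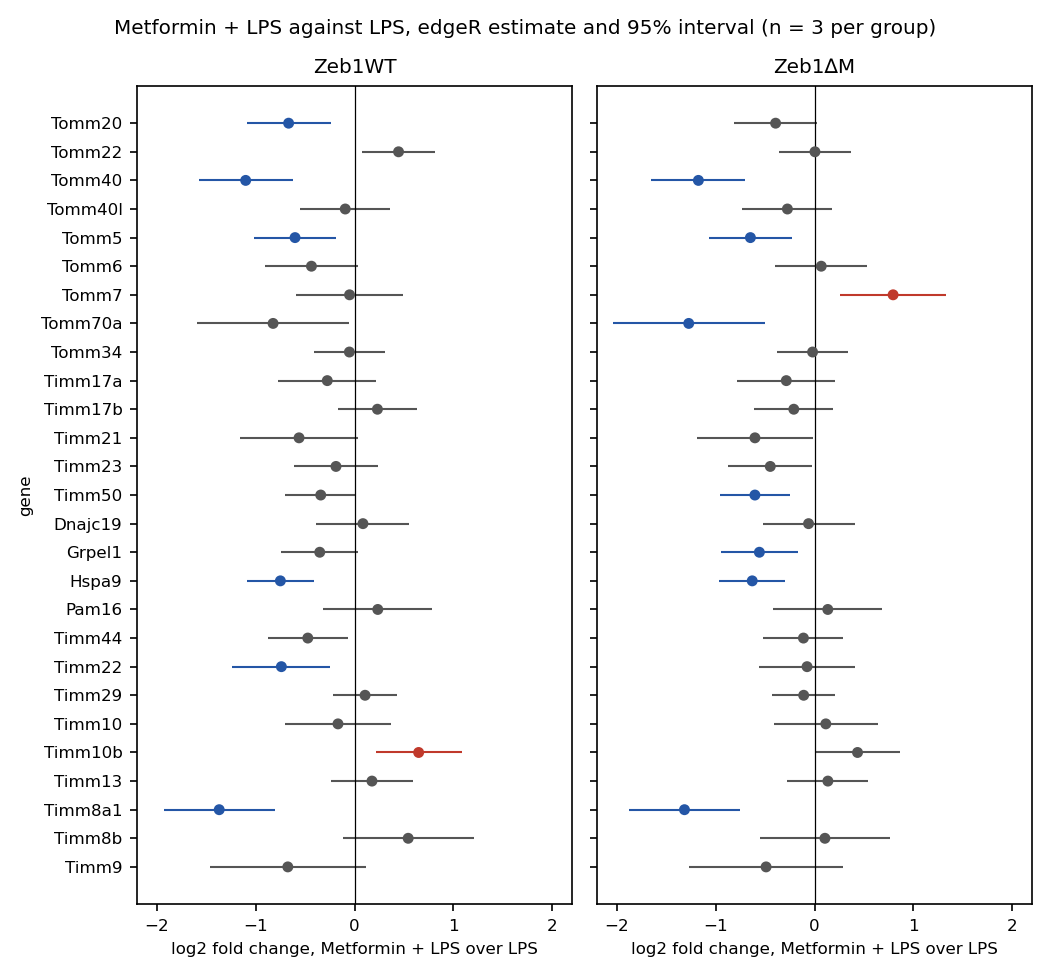
Metformin + LPS against LPS for the 27 tested import genes in each genotype, as the log2 fold change (horizontal axis, positive where Metformin + LPS was higher) with a 95% interval derived from the edgeR test, n = 3 libraries per group. Red marks genes called higher and blue genes called lower: 1 and 6 in Zeb1WT, 1 and 7 in Zeb1∆M, with Timm8a1 and Tomm40 below -1 in both.

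No import gene passed the test of a difference between genotypes in the change with Metformin, where 21 of 13443 genes did (0.156%, edgeR). DESeq2 called 0 import genes, where 282 of all genes passed by that test (2.2%). The 1 gene at an unadjusted p under 0.05 was Tomm7, with an interaction of 0.84 ± 0.36 (unadjusted p = 0.0321 in the edgeR fit, edgeR adjusted p = 0.320), so its call in Zeb1∆M alone is not shown to be particular to that genotype.

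Over the 9 comparisons, 20 of 27 import genes were called at least once, as were 8362 of all 13443 genes tested (62.2%). Pam16, Timm10, Timm17a, Timm17b, Timm23, Timm9 and Tomm22 were called in none, and these include both TIM23 subunits of the Timm17 type and the pore Timm23. Of the 27, Hspa9 and Tomm5 were called in all 4 comparisons of treatments, as were 4.92% of all genes tested, Hspa9 lower in each, and Tomm5 higher with the second LPS dose and lower with Metformin. Most of these calls did not survive the loss of a library. With LPS + LPS, the call of Tomm5 ended in 3 of the 6 fits that left out 1 library in Zeb1WT and 5 of 6 in Zeb1∆M, and with Metformin in 5 of 6 in each genotype. The call of Hspa9 ended in 4 of 6 in each genotype with LPS + LPS, and with Metformin in 0 of 6 in Zeb1WT and 1 of 6 in Zeb1∆M. The comparisons of Metformin + LPS and of LPS + LPS use the same LPS libraries within a genotype.

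**Figure D5:**
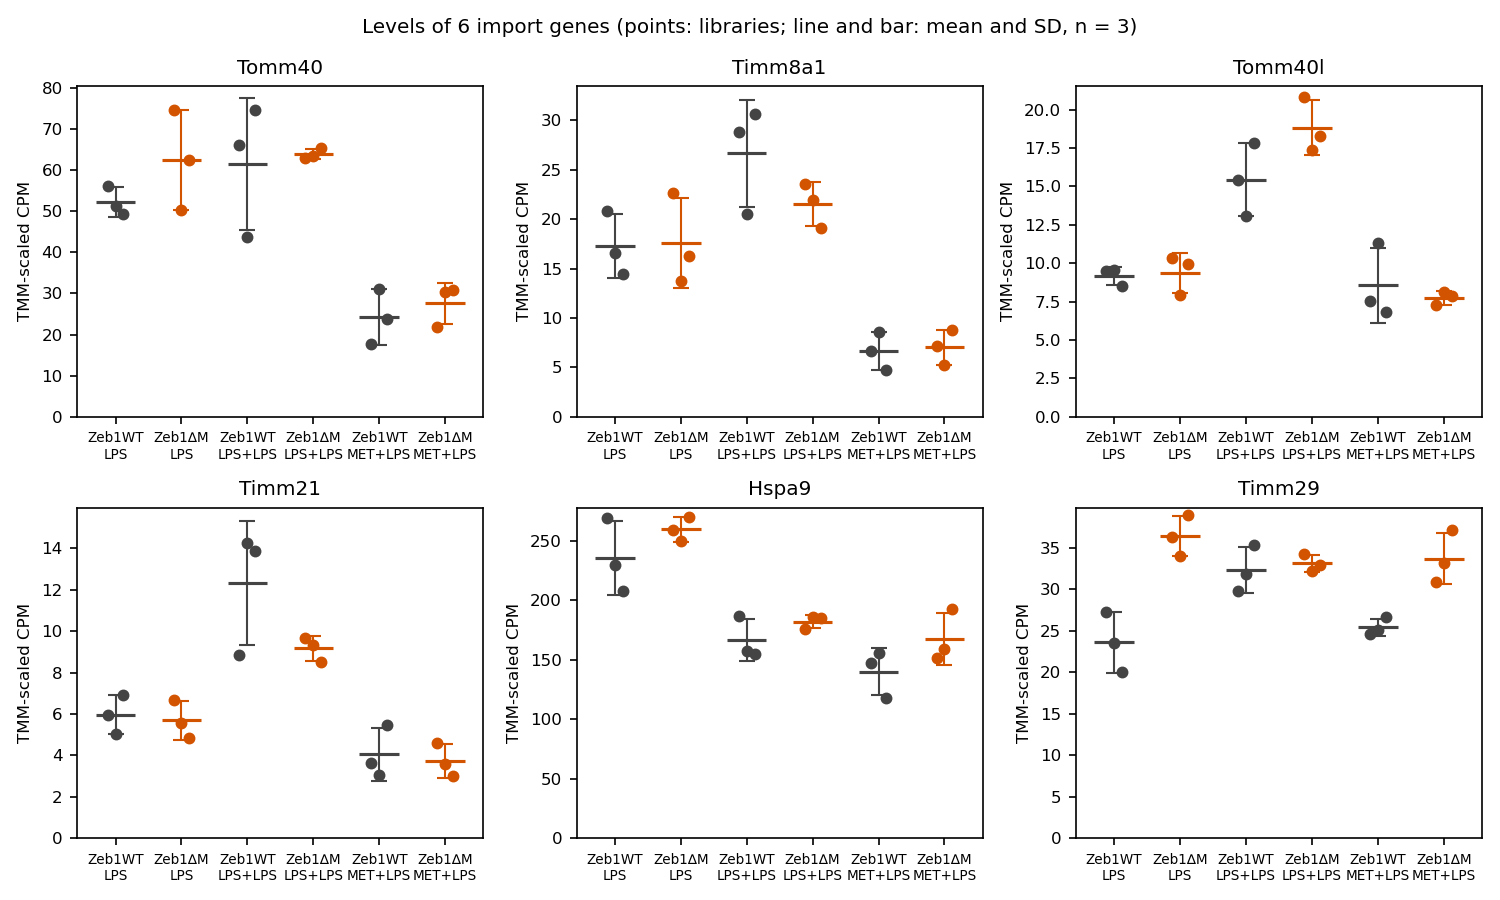
Levels of 6 import genes in CPM (vertical axes, from 0) in the 6 groups, with each point a library and the line and bar the mean and SD, n = 3, Zeb1WT in grey and Zeb1∆M in orange. Tomm40 and Timm8a1 are lowest in the Metformin + LPS groups, Tomm40l and Timm21 highest in the LPS + LPS groups, Hspa9 highest in the LPS groups, and Timm29 in Zeb1WT LPS lies below all Zeb1∆M LPS libraries.

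Other genes of the import route, from a list of 31 with 30 tested, covered cytosolic chaperones, sorting, processing and folding factors. After LPS + LPS, 2 were higher and 5 lower in Zeb1WT, and 0 were higher and 6 lower in Zeb1∆M. The shares called, 23.3% and 20%, lay below the 36.6% and 32.7% of all genes. Those that fell in both genotypes were Dnaja1, Dnaja2, Hspa8 and Stip1, which are cytosolic chaperones and co-chaperones that hold precursors, and Pmpcb, a subunit of the presequence protease. Hspa8 had log2 fold changes of -1.77 ± 0.25 and -1.86 ± 0.25 and Dnaja2 of -1.90 ± 0.18 and -1.68 ± 0.17 (edgeR adjusted p = 2.26e-05, 1.73e-05, 1.7e-07 and 8.7e-07), larger in size than any change among the import genes in that comparison. After Metformin + LPS, 5 were higher and 3 lower in Zeb1WT and 4 higher and 6 lower in Zeb1∆M, 26.7% and 33.3% where 25.2% and 26.2% of all genes passed. Chchd4, the oxidoreductase that folds small TIM proteins in the intermembrane space, fell in both (-1.40 ± 0.22 and -1.06 ± 0.22, edgeR adjusted p = 0.000267 and 0.00219), as did the matrix chaperonin Hspd1 (-0.68 ± 0.16 and -0.82 ± 0.16, edgeR adjusted p = 0.00539 and 0.00167). Between genotypes, Btf3 and Naca, the subunits of the nascent polypeptide-associated complex at the ribosome, were lower in Zeb1∆M after Metformin + LPS (-0.97 ± 0.25 and -0.91 ± 0.21, edgeR adjusted p = 0.0250 and 0.0167). In that comparison 4.61% of all genes tested were lower, and the count for this list is not given.

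Among 9 regulators of mitochondrial biogenesis, 8 of them tested, Myc was lower in Zeb1∆M than in Zeb1WT after LPS (-1.35 ± 0.26, edgeR adjusted p = 0.0125). None of the import genes passed there, and 1.15% of all genes did. After LPS + LPS the estimate for Myc was below 0 against LPS in both genotypes (-1.55 ± 0.26 and -0.71 ± 0.26, adjusted p not given). The GABP subunit gene Gabpb1 was lower in both (-1.17 ± 0.18 and -1.21 ± 0.18, edgeR adjusted p = 4.61e-05 and 4.26e-05). With Metformin, Nrf1 was lower in both (-0.50 ± 0.16 and -0.58 ± 0.16, edgeR adjusted p = 0.0258 and 0.0117) and Myc passed in Zeb1WT (-1.97 ± 0.26, edgeR adjusted p = 5.99e-05). There 25.2% and 26.2% of all genes passed. How many of the 8 regulators passed in each comparison is not given, so the genes named are not read as a result on the list. For comparison, of 78 mitochondrial ribosomal protein genes, 27 were higher and 5 lower after LPS + LPS in Zeb1WT and 10 and 10 in Zeb1∆M, 41% and 25.6% where 36.6% and 32.7% of all genes passed, with medians of 0.29 and -0.03, against 0.25 and -0.07 for the import genes. The difference between the lists was not tested.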

How the data were processed

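The authors deposited 1 table of read counts per gene (55573 genes, 18 libraries), unnormalised whole numbers, from total RNA isolated with Trizol and prepared as stranded mRNA libraries. The submitters' processing notes name STAR, RSEM and DESeq2 without versions or settings, and the genome build GRCm38. The counts were used as deposited. Genes were filtered by filterByExpr (minimum count 10), scaled by TMM and fitted with edgeR 4.0.16 (quasi-likelihood F-test, R 4.3.3, limma 3.58.1), all 6 groups in 1 fit without a replicate term, with Benjamini-Hochberg adjustment over the 13443 genes tested and a threshold of 0.05. CPM values are TMM-scaled. Log2 fold changes are given with an SE derived from the test, as their size divided by the square root of the F statistic. The 95% intervals are the log2 fold change plus and minus this SE times a t quantile. The edgeR test itself reports neither. The 9 comparisons were genotype within each treatment, each of LPS + LPS and Metformin + LPS against LPS within genotype, and the interactions. The fit was also run on counts simulated from its own estimates of the spread, with changes added to chosen genes. Such counts cannot show how the fit handles the differences in RNA composition between these groups, and no result rests on them.

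Total counts set the precision: genes with few counts have wide intervals. Replicates are separate pools of mice as labelled, and p-values measure the spread between these pools. Exon lengths, positions and overlaps came from GENCODE M21 (all 29 identifiers matched) and promoter windows from RefSeq on GRCm38.p6. Any gene found by the rule may be named, with values by library for those with the smallest adjusted p in each role group. Further genes with per-library values were chosen after their values were seen. From the other import genes and the regulators, up to 6 with the smallest adjusted p per comparison were named. The genes and lists were chosen with earlier results of these data known. Alternatives were other scalings, no count filter, fits with the compared groups alone, a replicate term, DESeq2 1.42.0 and leaving out each library. Scaling by library totals alone and removal of trends with length and GC were added after seeing the data.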

Additional observations from a re-analysis of the deposited data

How the results depend on the processing

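Of 33 calls of an import gene in a comparison, 9 were kept in every alternative run and 24 were lost in at least 1, 21 of them when a library was left out. The 9 kept were Dnajc19, Timm21 and Tomm40l after LPS + LPS in Zeb1WT, Tomm40l in Zeb1∆M, Hspa9 with Metformin in Zeb1WT, and Timm8a1 and Tomm40 with Metformin in both genotypes. With library totals alone, a scaling chosen after seeing the data that moved the median of all genes by 0.57 in the genotype comparison after Metformin + LPS, by 0.65 and 0.59 with LPS + LPS in Zeb1WT and Zeb1∆M and by -0.71 and -0.23 with Metformin, the counts of import genes higher were 15 for genotype after Metformin + LPS, 17 and 10 with LPS + LPS, and 0 and 0 with Metformin. The counts lower were 0 and 0 with LPS + LPS and 20 with Metformin in Zeb1WT. The sign turned for 4 results under it: Tomm22 between genotypes after Metformin + LPS (0.12), Hspa9 with LPS + LPS in Zeb1WT (0.14) and Zeb1∆M (0.079), and Timm10b with Metformin in Zeb1WT (-0.088). With trends of length and GC removed, also chosen after seeing the data, counts higher were 1 and 2 between genotypes after LPS and Metformin + LPS, 6 with LPS + LPS in Zeb1WT and 2 with Metformin in Zeb1∆M, and 7 were lower with LPS + LPS in Zeb1∆M. Fitting only the groups compared gave 6 higher and 1 lower with LPS + LPS in Zeb1WT and 0 higher with Metformin in Zeb1WT. Without the count filter there were 1 higher and 1 lower with LPS + LPS in Zeb1∆M, 0 higher with Metformin in either genotype and 3 lower in Zeb1∆M. DESeq2 called 1 higher between genotypes after LPS and 2 higher with Metformin in Zeb1WT, where upper-quartile scaling also gave 2. The cause of these shifts was not tested.

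Leaving out 1 library gave 5 to 9 higher and 1 to 3 lower with LPS + LPS in Zeb1WT, 1 to 4 and 0 to 4 in Zeb1∆M, 0 to 1 and 3 to 5 with Metformin in Zeb1WT, and 0 to 2 and 3 to 7 in Zeb1∆M. The comparisons of genotype and the interactions gave 0 throughout when a library of the groups compared was left out. Over 45 same-numbered pairs of libraries the correlation of deviations from the group means ran from -0.089 to 0.152, with 3 above 0.1. Pairs of unlike number were not compared, so a pairing in some groups or genes is not excluded. A replicate block left every count as it was, with 10 higher and 3 lower after LPS + LPS in Zeb1WT.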
